A study of Mus musculus with 12 samples.

Results

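Ttr, Rbp4, Gc, Serpina1a, Lbp and Apoe encode proteins that are best known from blood plasma, and their mRNAs were followed here across the hormone-producing cells of the mouse pancreatic islet. These 6 genes of the 31055 in the single-cell tables, and of the 45808 in the bulk table, were chosen by name with earlier results of the same libraries in view, and those results included the levels of Ttr and Gc in the hormone classes. The levels by hormone class are therefore a description and carry no test. No threshold on a value set the membership.

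Most of these proteins are made in bulk by the liver and carried in blood. Transthyretin (Ttr) binds thyroxine and also binds the retinol carrier Rbp4. The vitamin D-binding protein Gc carries vitamin D metabolites and scavenges actin, Serpina1a is an alpha-1-antitrypsin that inhibits serine proteases, Lbp hands bacterial lipopolysaccharide to Cd14, and Apoe carries lipid to lipoprotein receptors. Pancreatic islets hold α-, β-, δ- and γ-cells, which make glucagon (Gcg), insulin (Ins1 and Ins2), somatostatin (Sst) and pancreatic polypeptide (Ppy), and islet Ttr has long been known from α-cells.

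The single-cell libraries came from Ppy-YFPi mice (Ppy-rtTA; TetO-Cre; R26-YFP), in which doxycycline lets cells with an active Ppy locus switch on a lasting YFP label. In this line rtTA takes the place of the Ppy coding sequence on the targeted allele. The mice were 2 months old, of mixed background, and had received doxycycline at 1 mg/ml in their drinking water from 1 month before, and in each of 2 experiments the sorted YFP+ and YFP- islet cells made 1 library each. Bulk libraries came from YFP+ γ-cells of the same line (n = 5) and from YFP+ δ-cells of Sst-Cre;R26-YFP mice of the same age and mixed background (n = 3). The labels carry the same doxycycline text for both lines, and only the γ-cell mice carry the Ppy-rtTA allele. γ-cell libraries were read as pairs of 100-base reads and δ-cell libraries as single 100-base reads on another sequencer, so cell type, mouse line, read layout and instrument cannot be told apart. Cells of several mice were pooled in each single-cell experiment, and the labels do not say whether bulk libraries are separate animals, so the p-values measure only the spread between these libraries.

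Of 5982 deposited cells, 5854 remained after doublet removal, with a median of 4237 to 8338 UMIs (unique mRNA tags) per cell and library, and 1 to 6 cell barcodes were shared by any pair of libraries. Cells were classed by hormone into Ppy+, Gcg+, Ins2+ and Sst+ cells and 3 bihormonal classes, Ppy+Gcg+, Ppy+Sst+ and Ppy+Ins2+. The 1432 Ppy+ cells were nearly all from YFP+ libraries (654 of 655 in experiment 1 and 771 of 777 in experiment 2), and all but 1 of the Gcg+, Ins2+ and Sst+ cells came from YFP- libraries. A difference between Ppy+ cells and those classes can thus not be told apart from one between libraries, whereas Gcg+, Ins2+ and Sst+ cells shared their libraries. Bulk totals ran from 14633838 to 31784878 counts in γ-cells and from 7641916 to 11773598 in δ-cells. Ppy stood at 95177 to 123905 counts-per-million (CPM) in γ-cell libraries and 9400 to 15506 in δ-cell libraries, and Sst at 7392 to 12540 in γ-cells and 60259 to 87413 in δ-cells, so each label matched its leading hormone and each group also held the other hormone's mRNA. Acinar markers summed to 2244 to 13321 CPM in γ-cell and 20642 to 88565 CPM in δ-cell libraries, and their part in the differences below was not tested.

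Ttr was highest in Gcg+ cells and lowest in Sst+ cells, and Ppy+ cells stood between them. Each class level below is the count summed over the cells of a class, in CPM scaled by trimmed mean of M-values (TMM), and the error is the SD of the 2 experiments. Gcg+ cells held 33008 and 21698 CPM of Ttr in experiments 1 and 2 (27353 ± 7997), Ppy+Gcg+ cells 12780 and 9380 (11080 ± 2404), and Ppy+ cells 5933 and 5312 (5623 ± 440). These 3 classes did not overlap, and the log2 difference of Ppy+ from Gcg+ cells was -2.48 and -2.03. Below them, Ins2+ cells had 2028 and 1149 CPM (1588 ± 621), Ppy+Sst+ cells 1062 and 1758 (1410 ± 492), Ppy+Ins2+ cells 1359 and 1414 (1386 ± 38.6), and Sst+ cells 183 and 349 (266 ± 117). The ranges of Ins2+, Ppy+Sst+ and Ppy+Ins2+ cells overlapped, so those neighbours were not separated by the spread between experiments.

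Droplets also catch free RNA, and Ttr was found in cells that should lack it. Without TMM scaling, as CPM of total UMIs, Ttr stood at 1856 and 2376 in a cluster led by the myeloid genes Lyz2 and Retnla, at 615 and 392 in one led by the stromal genes Dcn and Col3a1, and at 158 and 999 in one led by the antibody genes Jchain and Igkc. On this scale Sst+ cells had 265 and 578, Ins2+ cells 989 and 784, Ppy+ cells 4907 and 4396, and Gcg+ cells 34661 and 24971. Ppy+Sst+ cells had 1434 and 2266 and Ppy+Ins2+ cells 1138 and 1374. Gcg+ and Ppy+ cells were above these 3 clusters. The clusters named next come from a second, finer clustering of the cells kept from the first. The myeloid-gene cluster was kept, so the Apoe-led cluster can hold the same cells. The 34 cells of experiment 1 in a cluster led by Apoe, Pf4 and C1qc held 6804 (2440.5 in experiment 2), and 15 and 34 cells led by the acinar genes Cela2a and Try4, and also high in Ppy, held 8843 and 12174, which is more than in Ppy+ cells and less than in Gcg+ cells. The acinar-gene cluster counted as a Ppy cluster for the classes, so it can share cells with the Ppy+ class. The clusters are also an uncertain measure of the background of Ppy+ cells, 1425 of 1432 of which came from YFP+ libraries. Of the 158 cells of the Apoe-led cluster, 31 and 119 came from YFP- libraries. The Ttr level of Sst+ cells was at or below most of these values. For Sst+, Ins2+, Ppy+Sst+ and Ppy+Ins2+ cells the part of free RNA was not tested. When each cell was thinned to 1000 UMIs, 84.9% and 87.4% of Ppy+ cells (median depths 7705 and 5991 UMIs) still held a Ttr UMI, against 34.04% and 44.5% of the myeloid-gene cluster (4836 and 3865 UMIs), 23.8% and 42.5% of Sst+ cells (4136 and 3063 UMIs), and 57.5% and 58.0% of Ins2+ cells (23864 and 13033 UMIs). Unthinned, the Ppy+ shares were 99.2% (95% exact binomial interval 98.2 to 99.8%) and 98.3% (97.2 to 99.1%), and the Sst+ shares 62.3% and 74.0%. Such intervals and the floors below cover counting error only.

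Rbp4 was highest in Sst+ cells, where Ttr was lowest. Sst+ cells held 3298 and 2540 CPM (2919 ± 536) and Ppy+Sst+ cells 2675 and 1475 (2075 ± 849), and these neighbours overlapped. Gcg+ cells followed with 837 and 783 CPM (810 ± 38.3), Ppy+Gcg+ cells with 599 and 539 (569 ± 42.9), and Ppy+ cells with 462 and 456 (459 ± 4.13), without overlap between these 3. Ppy+Ins2+ cells had 185 and 221 CPM (203 ± 25.4), and Ins2+ cells 65.7 and 194 (130 ± 90.9), which overlapped. Within the YFP- libraries alone, Sst+ cells exceeded Ins2+ cells by 5.63 and 3.70 on the log2 scale, and the difference of Gcg+ from Sst+ cells was -1.98 and -1.70. As CPM of total UMIs, Ins2+ cells had 32.0 and 133 of Rbp4, within the 0 to 300.1 of the 5 largest non-endocrine clusters over both experiments. They were below the myeloid-gene cluster (136 and 258) and above the antibody-gene cluster (7.86 and 64.4), and the part of free RNA was not tested. Ppy+Ins2+ cells, with 155 and 215, lay in that range as well, and the part of free RNA in them was not tested.

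Gc had its highest level in Ppy+ cells, where it stood at 266 and 297 CPM (281 ± 22.2). Ppy+Gcg+ cells came next with 179 and 198 (188 ± 12.9) and did not overlap with Ppy+ cells. Gcg+ cells had 149 and 109 CPM (129 ± 28.1) and Ppy+Sst+ cells 93.6 and 144 (119 ± 35.5), which overlapped. The lower levels were 77.2 and 78.2 in Ppy+Ins2+, 82.8 and 43.8 in Sst+, and 26.0 and 6.31 in Ins2+ cells. The log2 difference of Ppy+ from Gcg+ cells was 0.83 and 1.44, so it passed the 2-fold mark in experiment 2 alone. As CPM of total UMIs, Ppy+ cells had 220 and 246 of Gc against 38.4 and 41.8 in the myeloid-gene cluster and 22.3 and 5.47 in the stromal-gene cluster, and Ins2+ cells, with 12.7 and 4.30, were not above the myeloid-gene cluster. The libraries as a whole held 187 and 215 CPM of Gc when YFP+ and 46.5 and 56.5 when YFP-, so clusters rich in YFP- cells, such as the Apoe-led one, do not measure the background of Ppy+ cells.

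Serpina1a was read at few counts, and its highest level was in Ppy+Gcg+ cells. These cells held 20.8 and 25.7 CPM (23.2 ± 3.45, from 79 and 88 UMIs), above both Ppy+ cells, with 5.96 and 15.2 (10.6 ± 6.52), and Gcg+ cells, with 5.56 and 6.76 (6.16 ± 0.850). Ppy+Ins2+ cells varied most, with 2.38 and 16.2 CPM from 2 and 6 UMIs, and Ppy+Sst+ cells had 1.59 and 2.38. Ins2+ cells held 1 UMI in all, and Sst+ cells none: 0 of 130 and 0 of 127 cells, where exact intervals allow shares of up to 2.80% and 2.86%. Taking 3 counts over both experiments as the floor, the level in Ppy+ cells was at least 5.07-fold higher, and that in Gcg+ cells at least 2.96-fold higher, than in Sst+ cells. Serpina1a UMIs were in 4.12% and 7.21% of Ppy+ cells and 11.3% and 17.1% of Ppy+Gcg+ cells, against 0.709% and 1.96% of the myeloid-gene cluster. At 1000 UMIs per cell the shares were 0.458% and 0.644% in Ppy+ cells, 2.69% and 1.97% in Ppy+Gcg+ cells (median depths 7688.5 and 6753.5 UMIs) and 0 in the myeloid-gene cluster. The same limit holds here, since YFP+ libraries held 8.88 and 14.8 CPM of Serpina1a as a whole against 1.85 and 3.93 in YFP- libraries, and Ppy+ cells, with 4.93 and 12.6 CPM of total UMIs, were below their own libraries' level. A cluster of 520 cells, high in both Ppy and Gcg, had Serpina1a, Serpina1d and Serpina1b among its leading genes, but Serpina1b and Serpina1d were themselves among the genes clustered on, so this is no result.

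Lbp also peaked in Ppy+ cells, at 19.8 and 11.9 CPM (15.8 ± 5.60, from 93 and 54 UMIs). Ppy+Gcg+ cells had 11.3 and 4.96 CPM, Ppy+Sst+ cells 7.14 and 6.54, Sst+ cells 4.95 and 3.13, Gcg+ cells 5.21 and 1.88, and Ins2+ cells 0.998 and 0. On this scale Ppy+ cells did not overlap with any other class, and Ppy+Gcg+ cells overlapped with Ppy+Sst+ and Gcg+ cells. Sst+ cells overlapped with Gcg+ cells, and Ins2+ cells stood below both in each experiment. Without TMM scaling, Ppy+ cells (16.4 and 9.83) overlapped with Ppy+Gcg+ cells (11.7 and 5.12). At 1000 UMIs per cell, 1.22% and 1.03% of Ppy+ cells held a Lbp UMI, against 1.88% and 0.843% of Ppy+Gcg+ cells. Whole libraries held 13.3 and 7.81 CPM when YFP+ and 4.42 and 10.8 when YFP-. The lack of overlap of Ppy+ cells thus depends on the scale. Without TMM scaling they were still the highest class within each experiment, but by the share at 1000 UMIs they were not in experiment 1. No Lbp UMI was found in the 83 and 38 Ppy+Ins2+ cells, so the level in Ppy+ cells was at least 6.43-fold higher at a floor of 3 counts. As CPM of total UMIs, the stromal-gene cluster held more Lbp (54.1 and 52.9) than Ppy+ cells (16.4 and 9.83), the myeloid-gene cluster 7.91 and 20.9, and the antibody-gene cluster 0 and 1.06.

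Apoe was scarce in the endocrine classes and abundant in several, but not all, non-endocrine clusters. As CPM of total UMIs, it stood at 15207 in 158 cells led by Apoe, Pf4 and C1qc, a macrophage-type set of genes, at 2256 in the myeloid-gene cluster, at 4899 in the cluster led by the acinar genes Ctrb1 and Try5, at 877 in the stromal-gene cluster and at 529 in the cluster led by the endothelial genes Fabp4 and Flt1. It was 69.6 in the antibody-gene cluster and 73.0 in 51 cells led by the neutrophil genes S100a8 and S100a9, which lay within the range of Ins2+ cells on the same scale (7.30 and 81.8). The clusters of 158 and 51 cells come from the second clustering and can share cells with the myeloid-gene cluster. Their values and its value are therefore not independent. Among the hormone classes, the TMM-scaled levels were 15.0 and 120 CPM in Ins2+, 8.69 and 72.5 in Gcg+, and 11.1 and 39.1 in Sst+ cells, all but 1 of them from YFP- libraries, and 2.34 and 11.0 in Ppy+ cells. Experiment 2 was the higher in each of these 4 classes, and the YFP- library of experiment 2 as a whole had 805 CPM of Apoe against 309 in experiment 1. Cd74, an antigen-presentation gene, was 29.8 and 313 CPM in Ins2+ cells and 19.1 and 71.8 in Gcg+ cells, and Lyz2 was 5.4 and 88.3 in Ins2+ cells, so both moved with Apoe between experiments. In Ppy+Gcg+ cells of experiment 1, 108 Apoe UMIs lay in 19 of 372 cells. With these values no order of Apoe among the endocrine classes is read as expression.

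The genes most like each member across the 14 sums of class and experiment were listed by Pearson's r of log2(CPM + 1) among 3566 genes with a mean of at least 20 CPM, as a description of sums that share libraries. They were Rpl29, Rplp0 and Tmsb4x for Ttr (0.97, 0.96 and 0.95), Nostrin, Ehf and Arg1 for Rbp4 (0.95, 0.93 and 0.92), and Alcam, Lgals3bp and Gria2 for Gc (0.95, 0.94 and 0.93). For Serpina1a they were Rhou, Slc16a10 and Itsn2 (0.93, 0.92 and 0.92), and for Lbp Sumo2, Nsrp1 and Oaz1 (0.93, 0.92 and 0.91). For Apoe they were H2-Ab1, Sub1 and Cd74 (0.86, 0.82 and 0.81), of which H2-Ab1 and Cd74 serve antigen presentation.

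**Figure D1:**
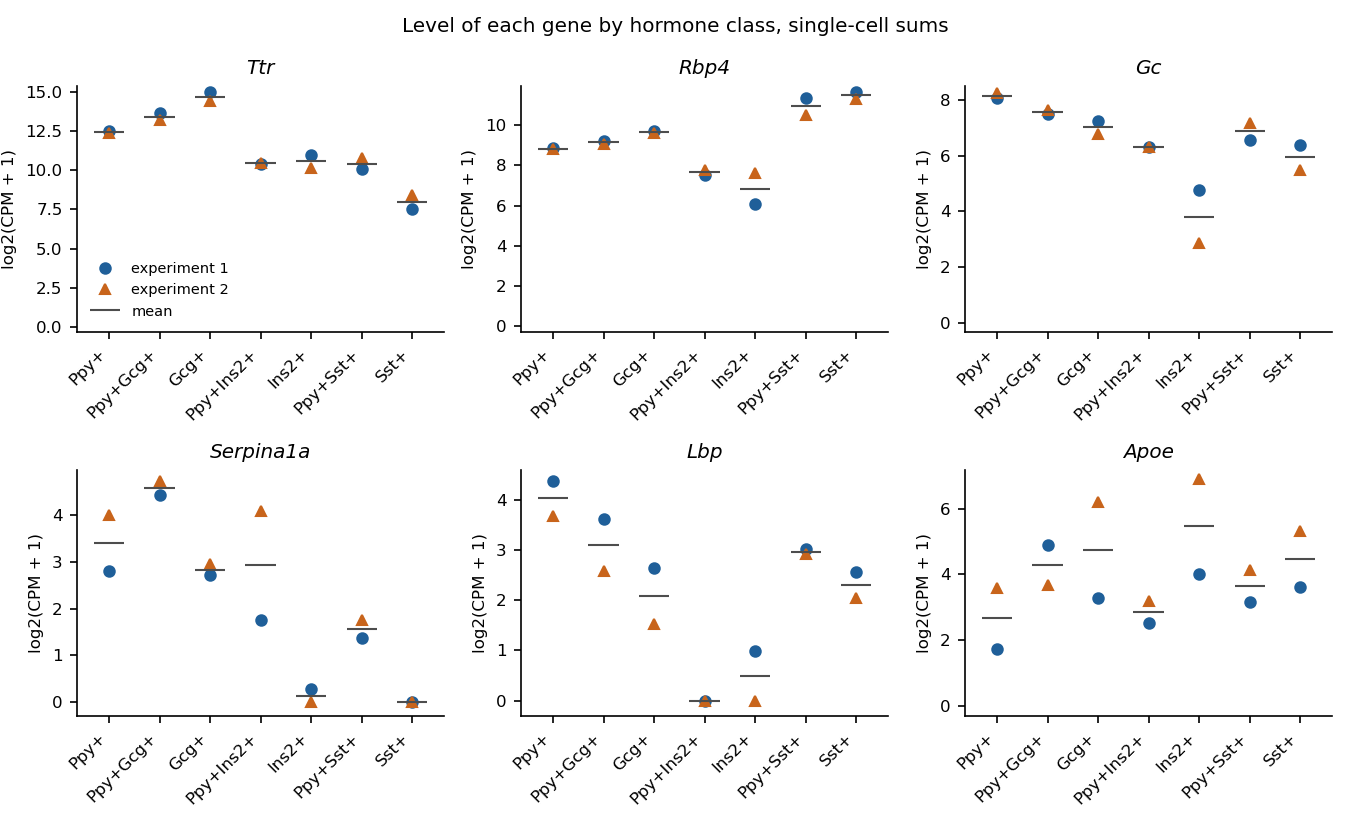
Level of each gene by hormone class, as log2(CPM + 1) of TMM-scaled sums, with 1 point for each of the 2 experiments and a bar at their mean. Ttr peaks in Gcg+ cells, Rbp4 in Sst+ cells, Gc and Lbp in Ppy+ cells and Serpina1a in Ppy+Gcg+ cells, while the experiments lie far apart for Apoe in Gcg+ and Ins2+ cells.

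Counted on the TMM scale at a 2-fold difference held in both experiments, Ppy+ cells differed from Sst+ cells in all 6 members. Ttr, Gc, Serpina1a and Lbp were higher and Rbp4 and Apoe lower. Among 6769 genes, 4.11% were as much higher and 4.34% as much lower. As CPM of total UMIs, Gc was 220 and 246 in Ppy+ cells against 120 and 72.6 in Sst+ cells. Lbp was 16.4 and 9.83 against 7.15 and 5.19. On that scale neither was 2-fold higher in both experiments, so the count depends on the scaling. Against Ins2+ cells, 5 members were higher and Apoe was lower, beside 4.96% and 6.37% of all genes. Against Gcg+ cells, Lbp was higher and Ttr and Apoe lower, beside 2.37% and 2.77%. As the members were chosen with levels by class in view, nothing about the set is read from these counts.

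The bihormonal classes lay mostly in clusters high in their second hormone alone where that was Sst or Ins2: 43 of 396 Ppy+Sst+ and 3 of 121 Ppy+Ins2+ cells lay outside such clusters, against 607 of 728 Ppy+Gcg+ cells. Ppy+ cells lay in Ppy clusters, so class and cluster cannot be told apart in these comparisons. Those clusters include the one led by T-cell genes such as Cd3d and the one led by the acinar genes Cela2a and Try4. In all, 43 Ppy+ and 32 Ppy+Gcg+ cells lay in clusters led by genes of other cell types. Leaving such cells out, which was not planned, moved none of 54 values by more than the spread between experiments. None of the 6 passed a 2-fold difference between Ppy+Gcg+ and Ppy+ cells in both experiments (background 0.824% higher and 0.342% lower), although Ttr was higher by 1.11 and 0.82 on the log2 scale. On the TMM scale, Ppy+Sst+ cells had higher Rbp4 than Ppy+ cells (2.53 and 1.69). Ttr (-2.48 and -1.59), Gc (-1.50 and -1.04) and Serpina1a (2 and 4 UMIs in Ppy+Sst+ cells) were lower. That was 1 member higher and 3 lower, beside 2.69% and 1.27% of genes. As CPM of total UMIs, Gc was 126 and 185 against 220 and 246, and Ttr 1434 and 2266 against 4907 and 4396. On that scale neither was 2-fold lower in both experiments, while Rbp4 stayed higher (3611 and 1902 against 382 and 378). Within YFP+ libraries alone, Gc was 148 and 201 against 220 and 246. Ppy+Ins2+ cells had lower TMM-scaled Ttr (-2.13 and -1.91), Rbp4 (-1.31 and -1.04), Gc (-1.77 and -1.91) and Lbp. These were 4 of 5 measured members, and none was higher, beside 2.64% lower and 3.43% higher among all genes. As CPM of total UMIs, Rbp4 in experiment 2 was 215 against 378 in Ppy+ cells, less than 2-fold lower.

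The sort fraction moved with the level inside a bihormonal class. Ppy+Gcg+ cells held 11996 and 8267 CPM of Ttr, of total UMIs, when they came from YFP+ libraries and 23324 and 19910 when they came from YFP- libraries. Likewise Ppy+Sst+ cells held 2930 and 1562 CPM of Rbp4 in YFP+ and 4815 and 3715 in YFP- libraries. In both cases the YFP- values were nearer to the cells of the second hormone. Doublet removal had called few cells (8 by Scrublet and 120 by the nearest-neighbour score). The parts of free RNA and of remaining doublets in the bihormonal classes, here and in the comparisons above and below, were not tested.

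Within the YFP+ libraries alone, the Ppy+ and Ppy+Gcg+ cells were ordered by their Gcg level and divided into 5 bins of 196 cells in experiment 1 and 217 in experiment 2. By the class threshold the lowest 3 bins held Ppy+ cells alone and the highest bin Ppy+Gcg+ cells alone, so the bins largely restate the class difference. Ttr was level over the lowest 3 bins, at 4716, 4898 and 4659 CPM of total UMIs in experiment 1 and 3911, 4586 and 4096 in experiment 2. It then reached 7060 and 15970 in the highest 2 bins of experiment 1, and 5491 and 9877 in those of experiment 2. Rbp4 went from 334 to 642 CPM in experiment 1 and from 365 to 577 in experiment 2 between the lowest and the highest bin. Serpina1a went from 3.12 to 17.2 and from 6.63 to 25.8. Gc did not follow, with 196, 241, 210, 213 and 177 CPM in experiment 1 and 249, 246, 262, 227 and 203 in experiment 2. Across the 980 and 1085 cells, Spearman's rho with Gcg was 0.44 and 0.32 for Ttr, 0.29 and 0.23 for Rbp4, -0.02 and -0.07 for Gc and 0.12 and 0.17 for Serpina1a, as a description of cells that share a library and differ in depth.

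**Figure D2:**
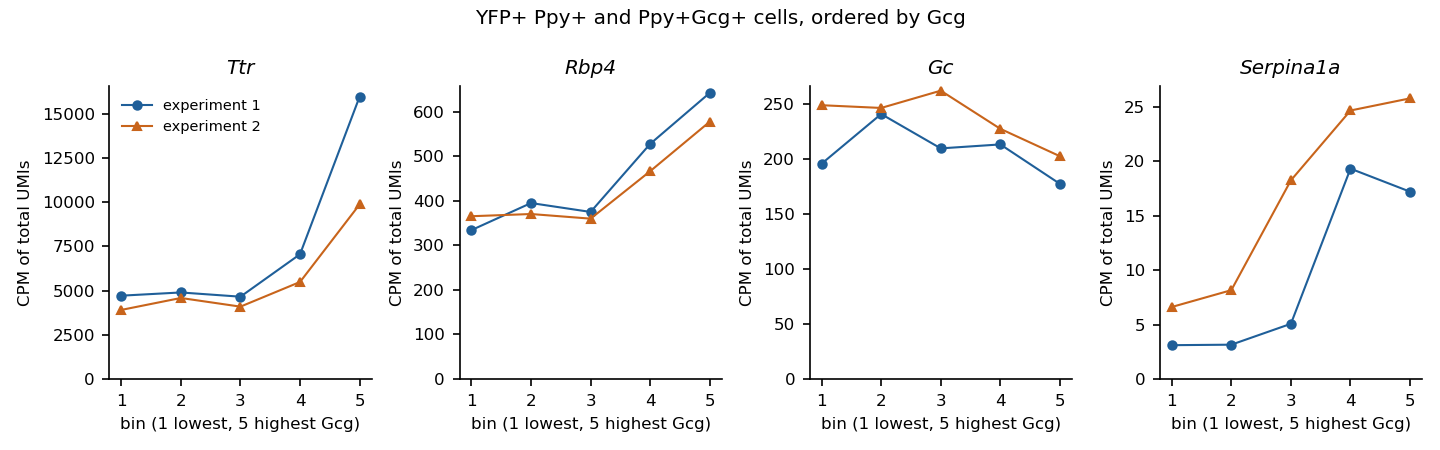
CPM of total UMIs of 4 genes in YFP+ Ppy+ and Ppy+Gcg+ cells, split into 5 bins from the lowest (1) to the highest (5) Gcg level, with 1 line for each experiment. Ttr, Rbp4 and Serpina1a are higher in the upper bins of both experiments, and Gc is not.

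Ordered by Sst in the same way among Ppy+ and Ppy+Sst+ cells, Rbp4 stood apart in the highest bin alone. Its values were 346, 377, 400.2, 389.6 and 2047 CPM of total UMIs in experiment 1 and 349, 389.5, 377, 373 and 1417 in experiment 2. Ttr went the other way between the lowest and the highest bin, from 4472 to 2742 and from 4343 to 2795. Spearman's rho of Rbp4 with Sst was 0.34 and 0.36 over 754 and 928 cells. By the class threshold the 100 and 157 Ppy+Sst+ cells all lay in the highest bin, so that bin largely restates the class difference.

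In bulk the members could be tested across libraries. Ttr, Serpina1a and Lbp were higher in γ-cells and Rbp4 was higher in δ-cells, while Gc differed by less than 2-fold and Apoe did not separate the groups. The calls come from edgeR's quasi-likelihood test with Benjamini-Hochberg adjustment over 17926 genes, with an adjusted p limit of 0.05 and at least a 2-fold difference in either direction. Of all genes, 20.7% were called higher and 14.2% lower in γ-cells, so 3 higher and 1 lower of 6 members is read beside that background. The log2 difference had a median of 1.62 over the members and -0.06 over all genes.

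Ttr read 1639, 1750, 1498, 1214 and 1958 CPM in the 5 γ-cell libraries and 194, 100.1 and 53.5 in the 3 δ-cell libraries. Each γ-cell library was above each δ-cell library, with means of 1612 ± 279 (SD, n = 5) and 116 ± 71.3 (n = 3). The log2 difference was 3.80 with a standard error of 0.40, and edgeR's adjusted p was 2.1e-05. Gcg, which was 46784 to 94384 CPM in γ-cells, read 5781, 2029 and 1346 in the δ-cell libraries, in the same order as Ttr there. As in any bulk sample, fewer cells of a type and less RNA per cell cannot be told apart, and the part of α-cells in either group was not tested. The gene lies at chr18:20664209-20674326 (GRCm38.p6).

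Rbp4 (chr19:38116620-38125321) read 548, 534, 566, 547 and 687 CPM in γ-cells and 858, 1154 and 1469 in δ-cells. All δ-cell libraries lay above all γ-cell libraries, with means of 1160 ± 305 (n = 3) and 576 ± 62.8 (n = 5). The log2 difference of -1.01 (standard error 0.17, edgeR adjusted p = 0.000649) was just past the 2-fold limit, and the call was lost without δ-cell library 3 (-0.81) or without γ-cell library 1 (-0.99), 2 (-0.97) or 4 (-0.99), while the direction stayed.

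Gc (chr5:89417511-89457898) read 618, 839, 835, 748 and 819 CPM in γ-cells and 315, 449.7 and 561 in δ-cells. The groups did not overlap, and their means were 772 ± 93.6 (n = 5) and 442 ± 124 (n = 3). Its log2 difference was 0.80 with a standard error of 0.19 and an edgeR adjusted p of 0.00518, below the 2-fold limit, and it passed the limit without δ-cell library 3 (1.01).

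Lbp (chr2:158306493-158332852) read 22.9, 31.5, 56.7, 39.2 and 61.2 CPM in γ-cells and 15.7, 4.07 and 4.23 in δ-cells. The highest δ-cell library stayed below the lowest γ-cell library, and the means were 42.3 ± 16.3 (n = 5) and 8.0 ± 6.67 (n = 3). The log2 difference was 2.43 (standard error 0.51, edgeR adjusted p = 0.00239). The 9 stromal markers, none of them at 0 in every library, summed to 1023 to 4984 CPM in γ-cells and 70.8 to 867 CPM in δ-cells, and their part in the Lbp difference was not tested. Their sum was highest in γ-cell library 3, which had the second highest Lbp.

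Serpina1a (chr12:103853295-103863619) was low, at 2.84, 6.78, 6.27, 3.09 and 3.20 CPM in γ-cells and 0.452, 0.399 and 0.813 in δ-cells. No δ-cell library reached the lowest γ-cell library, with means of 4.44 ± 1.92 (n = 5) and 0.555 ± 0.226 (n = 3), a log2 difference of 2.97 (standard error 0.53) and an edgeR adjusted p of 0.0009. Serpina1a has near-identical copies beside it on chromosome 12, and 47.4% of the 100-base windows along its transcript are shared with another copy. Bulk reads may thus be split or lost between them, and its level is uncertain. With paired reads in γ-cells and single reads in δ-cells, that loss may differ between the groups for each copy, which was not tested. Among these copies, Serpina1b had 14.7 CPM in γ-cells and 0.80 in δ-cells (log2 difference 4.24, edgeR adjusted p = 3.3e-05), Serpina1d 18.9 and 0.667 (4.83, 0.00109), and Serpina1e 1.06 and 0.0753 (3.90, 0.0151). Serpina1c did not reach the minimum count for testing. Each of the 3 copies that were tested was thus called higher in γ-cells, as Serpina1a was.

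The promoters of Serpina1a, Serpina1b and Serpina1d, which were each called higher in γ-cells, are printed to show how alike the copies are before the start of the gene. Their levels did not follow one another within γ-cells: Serpina1b was highest in library 4 (20.4 CPM), where Serpina1d was lowest (3.28 CPM). Capitals mark the longest run of letters shared by all 5 Serpina1 copies in these windows. Each sequence is the 250 bases before the start in RefSeq's record, written 5′ to 3′ along the gene, on the minus strand of GRCm38.p6. Serpina1a lies at chr12:103863620-103863869, Serpina1b at chr12:103738190-103738439 and Serpina1d at chr12:103773634-103773883.
Serpina1a: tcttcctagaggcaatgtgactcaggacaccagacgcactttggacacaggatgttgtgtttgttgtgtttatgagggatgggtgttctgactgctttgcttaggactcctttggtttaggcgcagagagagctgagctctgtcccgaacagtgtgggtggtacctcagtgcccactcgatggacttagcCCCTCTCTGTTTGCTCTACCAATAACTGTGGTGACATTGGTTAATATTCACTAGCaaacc
Serpina1b: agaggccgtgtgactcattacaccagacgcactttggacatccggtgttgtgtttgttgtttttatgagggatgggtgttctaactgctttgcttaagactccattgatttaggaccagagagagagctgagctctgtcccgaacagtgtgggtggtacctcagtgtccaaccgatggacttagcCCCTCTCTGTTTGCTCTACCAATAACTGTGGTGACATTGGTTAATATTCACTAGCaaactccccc
Serpina1d: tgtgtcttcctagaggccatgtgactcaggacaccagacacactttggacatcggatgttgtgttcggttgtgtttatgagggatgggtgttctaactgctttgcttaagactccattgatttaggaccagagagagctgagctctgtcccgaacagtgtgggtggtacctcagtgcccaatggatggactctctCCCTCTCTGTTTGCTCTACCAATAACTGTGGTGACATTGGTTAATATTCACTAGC

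The shared run was 55 bases long and began 60 bases before the start in Serpina1a, 65 in Serpina1b and 55 in Serpina1d. The forkhead letters TGTTTAC, found in 3.17% of 32851 promoter windows of this length on either strand, occurred in none of the Serpina1 windows and in 1 of the 2 windows of Rbp4, 241 bases before its start. Of the 10 genes looked up, 8 had an entry. These are matches of letters and say nothing of binding.

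Apoe (chr7:19696244-19701310) read 28.0, 36.2, 143, 27.1 and 247 CPM in γ-cells and 211, 52.4 and 31.7 in δ-cells. The groups overlapped, with means of 96.3 ± 97.5 (n = 5) and 98.3 ± 97.9 (n = 3), a log2 difference of -0.03 with a standard error of 0.83 and an edgeR adjusted p of 0.981. An error of that size leaves room for a difference of more than 2-fold either way, and the sign turned without γ-cell library 1 (0.21), 2 (0.19) or 4 (0.21) or without δ-cell library 1 (1.20). The 12 macrophage markers summed to 111, 141, 199, 109 and 535 CPM in γ-cells and 634, 292 and 107 in δ-cells, with none at 0 in every library. The 3 libraries with the most Apoe were γ-cell libraries 5 and 3 and δ-cell library 1, and γ-cell library 5 and δ-cell library 1 also had the highest marker sums. Lyz2 was 207 CPM in γ-cell library 5 and 63.4 in δ-cell library 1, against 1.45 to 22.1 in the others, and the part of macrophages in Apoe was not tested.

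**Figure D3:**
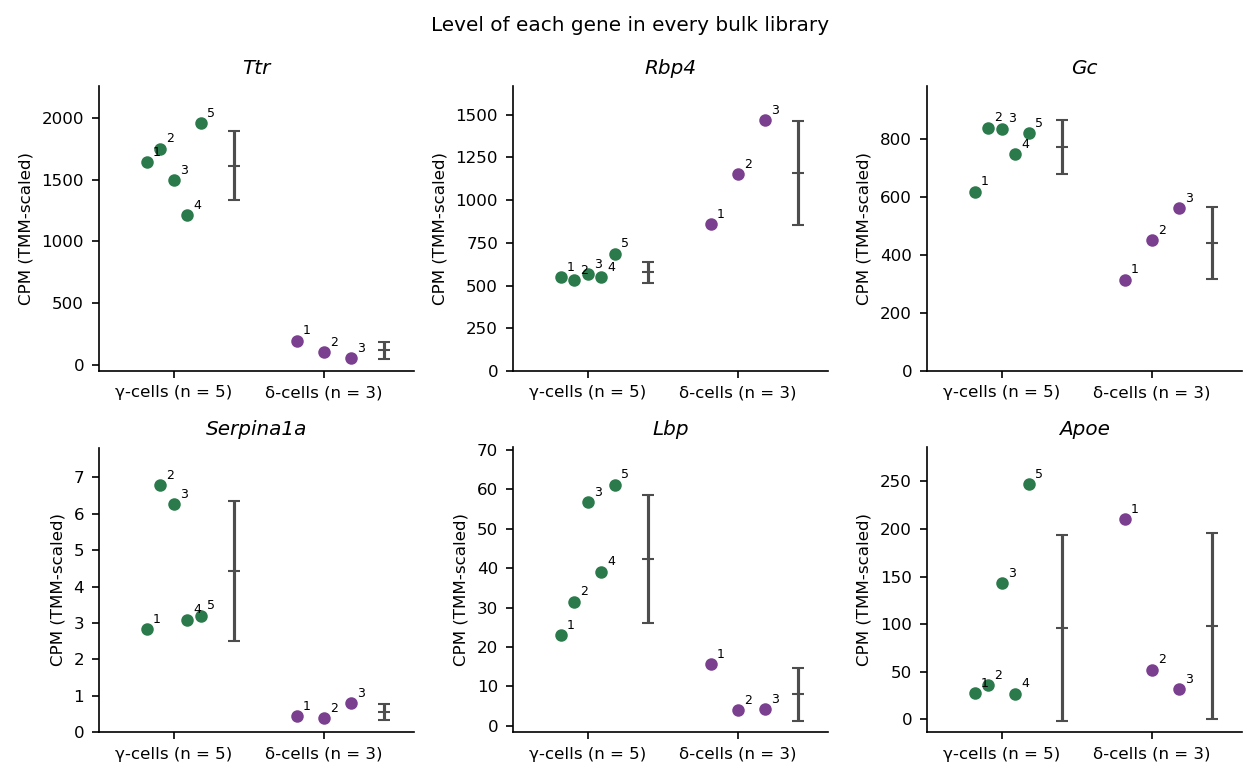
TMM-scaled CPM of each gene in every bulk library, numbered by replicate, with the mean and SD of each group beside the points. The groups are apart for Ttr, Rbp4, Gc, Serpina1a and Lbp, and overlap for Apoe.

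**Figure D4:**
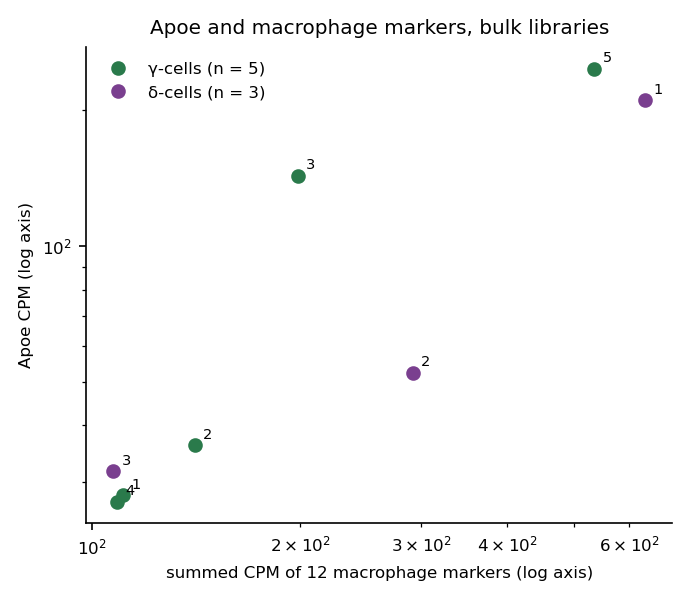
Apoe against the summed level of 12 macrophage markers in the 8 bulk libraries, both as CPM on log axes. γ-cell library 5 (247 and 535) and δ-cell library 1 (211 and 634) lie at the upper right, and γ-cell library 3 has 143 CPM of Apoe at a sum of 199.

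Every γ-cell library was above every δ-cell library for 4 members (Ttr, Gc, Serpina1a and Lbp), as was so for 27.8% of all genes, and every one was below for Rbp4, as for 26.5% of genes. Scaled by exon length, so that genes can be set side by side, γ-cells held 1359 ± 235 CPM per kilobase of Ttr, 429 ± 46.8 of Rbp4, 418 ± 50.7 of Gc, 45.1 ± 45.6 of Apoe, 8.76 ± 3.38 of Lbp and 2.42 ± 1.05 of Serpina1a (n = 5). In δ-cells Rbp4 led with 864 ± 227, before Gc with 239 ± 66.9, Ttr with 97.6 ± 60.2 and Apoe with 46.0 ± 45.8 (n = 3). Rbp4 and Gc did not differ beyond their spread in γ-cells.

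The summed hepatocyte markers overlapped between the groups. They came to 39.4 to 58.4 CPM in γ-cells and 31.8 to 66.8 in δ-cells, Mup3 was at 0 in every library, and 4 of 12 stayed under 1 CPM in all of them. Of the 9 that were tested, edgeR called 2 higher (Apoa2 and Fgb) and 3 lower (Apoa1, Cyp3a11 and Cps1) in γ-cells.

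The direct partners of the members differed from each other in their direction. Of the retinol receptors, Stra6l was lower in γ-cells (0.315 against 4.86 CPM, log2 difference -3.87, edgeR adjusted p = 0.0126), and Stra6 did not pass the test (0.820 and 0.178 CPM). Gsn, which shares with Gc the clearing of actin, was higher in γ-cells (864 against 172, 2.33, 0.00602), with 1778 CPM in γ-cell library 3, where the stromal markers were highest as well. Cd14, which takes lipopolysaccharide from Lbp, was lower (2.42 against 16.5, -2.75, edgeR adjusted p = 0.00398). It read 33.4, 8.06 and 8.13 CPM in the δ-cell libraries, so that mean leans on library 1. The macrophage marker sum was also highest there (634 CPM). In γ-cell library 5, with a sum of 535, Cd14 was 2.46. The part of macrophages in the Cd14 difference was not tested. Its co-receptors Tlr4 (1.32 and 2.90) and Ly96 (4.37 and 3.98) did not pass. Lrp1, which takes up Apoe, was higher (191 against 86.8, 1.14, 0.000743). The vitamin D receptor Vdr read 125 and 83.6 CPM without passing, and Lrp2 and Cubn, which take up Gc in kidney, were too low to test. In single cells Vdr was higher in Ins2+ cells (99.2 and 66.8 CPM) than in Ppy+ cells (16.6 and 20.2).

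The wider pathways were read as lists that had been chosen with these data known, against the background of 20.7% higher and 14.2% lower. Of 16 retinoid genes tested, 5 were called higher in γ-cells and 3 lower, with a median log2 difference of 0.64. The nuclear receptors Rxra (119 ± 16.2 against 17.2 ± 1.20 CPM, log2 difference 2.79) and Rxrb (63.3 ± 5.68 against 11.2 ± 1.55, 2.50) were among those higher, and Dhrs3, a retinal reductase, was lower (2.95 ± 0.543 against 38.9 ± 32.2, -3.71). Rbp2, the intestinal retinol-binding protein, had no count in any γ-cell library and 6.10, 40.2 and 0.0813 CPM in δ-cells, so its level rests on δ-cell libraries 1 and 2.

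Of 7 thyroid hormone genes tested, 5 were called higher in γ-cells and none lower, with a median of 1.72. The transporter Slc16a10 read 391 ± 24.6 against 67.7 ± 14.1 CPM (log2 difference 2.53), the receptor Thra 90.9 ± 9.61 against 25.2 ± 2.88 (1.85) and the deiodinase Dio1 109 ± 12.4 against 31.8 ± 2.76 (1.77). In single cells Dio1 stood at 54.1 and 32.1 CPM in Ppy+ cells and 70.5 and 78.2 in Sst+ cells, so the direction of the bulk difference was not seen between those classes. Of 5 genes tested on the vitamin D list, 2 were called higher and none lower, with a median of 0.58. They were Cyp27a1 and Gsn, which clears actin as Gc does and is also among the stromal markers.

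Among 14 plasma carriers and related secreted proteins, 4 were called higher and 2 lower, with a median of -0.68. Igfbp7 (349 ± 32.9 against 14.2 ± 3.53 CPM, log2 difference 4.62), Igfbp4 (54.6 ± 44.7 against 2.12 ± 3.25, 4.84) and the thyroxine-binding globulin Serpina7 (62.3 ± 14.0 against 22.8 ± 6.94, 1.45) were higher, and Ambp, the precursor of alpha-1-microglobulin, was lower (57.6 ± 11.4 against 127 ± 33.1, -1.15). Of 20 serpins, 5 were called higher and 3 lower (median 0.47), and beside the Serpina1 copies the rule named Serpini2 (5.49 ± 3.43 against 119 ± 71.2, -4.45) and Serpinb1a (4.95 ± 2.21 against 36.3 ± 18.3, -2.86). Serpini2 is known from acinar cells, whose markers were higher in δ-cell libraries, and the part of these cells was not tested.

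Of 20 acute-phase and lipopolysaccharide genes, 4 were called higher and 4 lower (median 0.21). Fgb, the beta chain of fibrinogen, read 21.2 ± 5.27 against 0.307 ± 0.188 CPM (log2 difference 6.01) and Itih2 16.6 ± 4.11 against 3.18 ± 0.789 (2.38), and Itih4 was lower (1.95 ± 2.48 against 14.9 ± 7.31, -2.96). Of 24 apolipoproteins and lipid receptors, 5 were called higher and 6 lower (median -0.60). The sorting receptor Sort1 (280 ± 13.8 against 60.3 ± 7.53, 2.21) and the cholesterol exporter Abca1 (164 ± 33.9 against 39.97 ± 6.45, 2.04) were higher, and Abcg1 (63.8 ± 7.44 against 211 ± 29.0, -1.73) and the receptor Lrp8 (24.3 ± 7.88 against 55.8 ± 8.29, -1.20) were lower.

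Of 21 regulators known to act on liver genes, several of them also islet factors, 7 were called higher and 3 lower (median 0.59). Foxa2 (132 ± 16.0 against 8.50 ± 2.15 CPM, log2 difference 3.94) and Cebpd (17.7 ± 7.71 against 1.02 ± 0.612, 4.13) were higher, and Hnf4a (-0.56) was not called.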

How the data were processed

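Single-cell files held whole UMI counts per gene and cell, as deposited by the authors from Cell Ranger on mm10. The bulk file held whole read counts per gene, which the authors deposited after alignment with STAR 2.7.2b and counting with HTSeq 0.9.1 on GRCm38.p6; counting kept no strand. It has 6 per-sample columns that match no sample's labels and were not used. The 6 genes, the gene lists and the rules were chosen with earlier results of these data known.

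Doublets were removed with Scrublet (8 cells called, which has not worked) and a nearest-neighbour score (120 cells). Cells were clustered in Seurat 5.3.0 on 997 variable genes, leaving out the members. A cell was positive for a hormone above the density minimum of its log level, and a class with 1 hormone also needed a cluster of that hormone. Counts were summed per class and experiment, TMM-scaled, and compared as log2(CPM + 1) with no test; ratios are for genes with at least 10 CPM in the higher class. Bulk counts were tested in edgeR 4.0.16 (R 4.3.3; TMM, at least 5 counts per library on average). Named genes are the members, their listed direct partners, the Serpina1 copies, and in each list the 4 genes with the largest called bulk difference without overlap and with at least 10 CPM; a few genes so named are not reported here. On simulated counts for 17551 genes the bulk step recovered 26.3% of 2-fold and 67.4% of 4-fold differences, and 2.20% of its calls were unchanged genes. On simulated counts of Ppy+ against Gcg+ cells (6141 genes), 13.0% of 2-fold and 100% of 4-fold differences passed the 2-fold mark, so single-cell differences near the mark are often missed. Alternatives were DESeq2 1.42.0, other scalings, filters and classes, a replicate block, and each library left out.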

Additional observations from a re-analysis of the deposited data

Results flagged for a closer look

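Among 44 genes checked in the 5 γ-cell libraries, 6 had 1 library far above the other 4 (Dixon's test, 5 samples, critical value 0.71), where chance flags about 1 in 20 groups. Rbp4 was 687 CPM in library 5 and 534 to 566 in the others. Lrp8 was 38.3 in the same library and 19.4 to 22.2 in the others. In library 3, Gsn was 1780 CPM (483 to 797 in the others), Igfbp4 133 (26.8 to 43.7) and Cebpd 31.3 (12.8 to 15.8). Stromal markers, which include Gsn, summed to 4984 CPM in library 3 and to 1023 to 1887 in the others, and their part was not tested. Abcg1 was 76.7 CPM in library 2 and 57.8 to 62.6 in the others.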

How the results depend on the processing

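Of 690 single-cell values recomputed, 554 moved by less than the spread between experiments and 136 moved by more. The 554 include 54 values without experiment 1 and 54 without experiment 2. These could not move by more, because the spread comes from the same 2 experiments, so they say nothing of stability. No difference that was past 2-fold in both experiments turned sign, which was fixed in advance for the values with an experiment left out. Turns of sign among the other differences were not counted. They did occur with an experiment left out, as for Ttr between Ppy+Ins2+ and Ins2+ cells. The same held for Apoe between Ppy+Gcg+ and Gcg+ cells and for Serpina1a between Ppy+Ins2+ and Ppy+ cells. The count of members past 2-fold between Ppy+Gcg+ and Ppy+ cells, 0 as reported, was 2 without TMM factors, 1 with cells thinned to 1000 UMIs, 1 with the mean over cells and 1 to 3 with an experiment left out. Between Ppy+Sst+ and Ppy+ cells it was 4 as reported and 2 without TMM factors, 2 with YFP+ libraries alone, 2 with the mean over cells and 2 with bihormonal cells outside Sst clusters, a setting chosen after seeing the data. With the mean over cells it was 3 against Ins2+ cells (6 as reported), 2 against Sst+ cells (6) and 1 for Ppy+Ins2+ cells (4). Against Gcg+ cells it ran from 3 to 5 with an experiment left out. The mean over cells averages log levels of single cells, which is a different measure set against the same mark. Genes with UMIs in few cells, such as Serpina1a and Lbp, have means near 0 there and can hardly pass it. The cause of the other shifts was not tested.

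In bulk, 90 of 101 values kept their direction and side of the threshold. The number of genes called, 6268, ran from 5384 (replicate block) to 8730 (limit of 0.5 on the log2 scale), and members called from 3 to 5. Upper-quartile scaling moved the share called higher from 59.3% to 44.9% (median of all genes -0.35) and no filter to 50.1% (-0.45). Rbp4 lost its call without the filter (-0.997) and Gc gained one at the limit of 0.5 (0.80). With 1 library left out, Rbp4 lost its call at -0.99 to -0.81, Gc gained one at 1.01, and Apoe, never called, ran from -0.73 to 1.20. Leaving out γ-cell libraries 3 and 5 together was chosen after seeing the data, Apoe included, so Apoe gets no value there; Rbp4 was -1.08, Gc 0.75 and Lbp 2.00. Neither the labels nor the methods pair γ- and δ-cell libraries. Deviations of same-numbered libraries correlated at -0.17, 0.09 and -0.31, and so few values cannot exclude pairing. The replicate block changed no member's call. Depth limits Serpina1a and Lbp most: 1 to 93 UMIs in any class and experiment that held them, and 4 to 10 counts of Serpina1a per δ-cell library.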
